A study of Mus musculus with 6 samples.

Results

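The genes described here are the 9 mouse genes Ifnar1, Ifnar2, Ifngr1, Ifngr2, Tyk2, Jak1, Jak2, Stat2 and Stat3, which encode the receptors of type I and type II interferon, the kinases bound to those receptors and Stat transcription factors. They were chosen by name, and each was measured by 1 probe set that the array annotation assigns to it alone, so that 9 of 19938 measured genes and 9 of 35557 probe sets enter. Total RNA was hybridised to 6 whole-transcript arrays, 1 for each of 3 established mouse cell lines left unstimulated or stimulated with interferon-beta (IFN-β) for 4 h. NIH3T3 cells are fibroblasts of embryonic origin, L929 cells are fibroblasts from connective tissue and RAW264.7 cells are macrophages, and no genotype, transgene or other treatment is named for any of them. The series was made to find genes whose transcription IFN-β regulates. No group had a replicate, so a difference within a line has no error estimate, and tests across lines use the lines in place of replicates.

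Type I interferons such as IFN-β bind a receptor of the chains Ifnar1 and Ifnar2, which carry the kinases Tyk2 and Jak1. The kinases phosphorylate Stat proteins, and a complex of Stat2, a partner Stat and Irf9, called ISGF3, enters the nucleus and binds a DNA element named ISRE upstream of antiviral genes. Interferon-gamma uses a separate receptor of Ifngr1 and Ifngr2 with Jak1 and Jak2, and Stat dimers formed there bind another element named GAS. Stat3 is best known as the factor activated by interleukin-6 and interleukin-10, and type I interferon can activate it too.

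Defining markers followed the labels. All 12 macrophage markers were higher in RAW264.7 than in the fibroblast mean (limma, adjusted p under 0.05), beside 13.0% of all genes. Of 12 fibroblast markers 10 were lower, beside 12.3% of all genes, and Lum and Fap did not pass. The median log2 level of the macrophage markers was 10.41 in unstimulated RAW264.7, 3.82 in NIH3T3 and 4.14 in L929 (Cd68, Lyz2 and Tyrobp among them), and that of the fibroblast markers, Col1a1, Col1a2 and Sparc among them, was 4.90, 9.26 and 7.88. Dcn and Thy1 were near 10 in NIH3T3 only, at unstimulated log2 levels of 10.82 and 10.45 against 3.41 and 4.96 in L929. In unstimulated RAW264.7 they were 3.47 and 5.11, so their calls as lower rest on NIH3T3. Of the 12 macrophage markers 1, Mpeg1, rose by more than 3-fold with IFN-β in L929. It went from a log2 level of 3.91 to 8.09 there, against 9.11 in unstimulated RAW264.7. Median levels of the 7 epithelial markers (such as Cldn3, Krt8 and Cldn4) and 7 lymphocyte markers (such as Cd3e, Cd8a and Cd79b) stayed between 3.62 and 5.40 on all arrays. The median over all probe sets was 4.72 to 4.82 on 5 arrays and 5.05 on the stimulated NIH3T3 array. The median log2 change of all genes with IFN-β was 0.17 for NIH3T3, -0.05 for L929 and -0.03 for RAW264.7. From the unstimulated to the stimulated NIH3T3 array the lower quartile went from 3.34 to 3.62 and the upper quartile from 7.01 to 7.09. Housekeeping genes, at an unstimulated NIH3T3 median of 12.03, had a median change of -0.46 there. The shift was thus not the same at all levels, and small NIH3T3 changes are uncertain in either direction.

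The first question was which genes of the receptor, kinase and Stat set changed with IFN-β. Stat2 was the single gene of the 9 that rose by the test across the lines, where 0.732% of all genes were called higher. Stat3 and Jak2 had the next largest mean log2 changes, 0.76 and 0.70, and did not pass. The mean log2 changes of the other 6 genes lay between -0.19 and 0.18, and the median over the 9 genes was 0.07 against 0.03 over all genes tested.

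**Figure D1:**
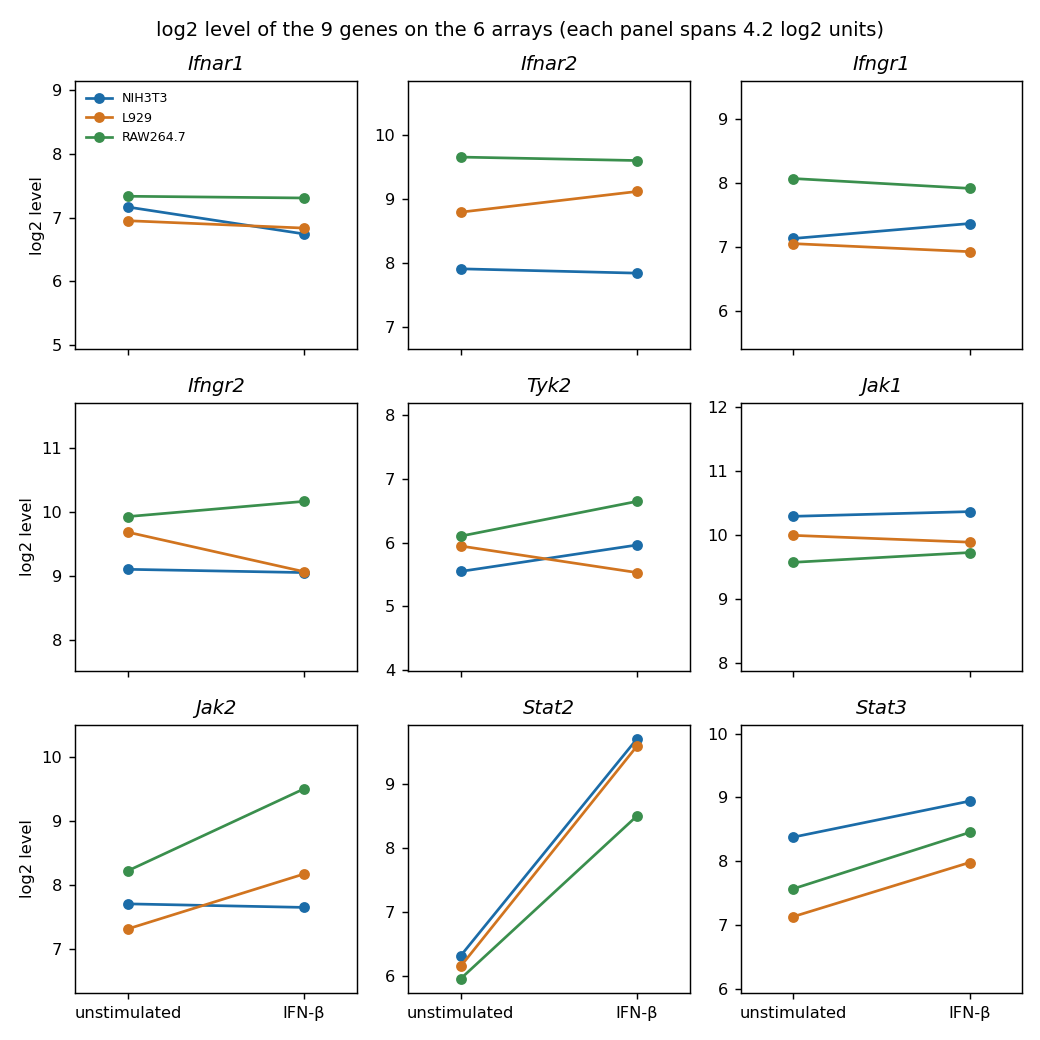
Each panel plots the log2 level of 1 gene (vertical axis, each panel spanning the same width) on the unstimulated and the IFN-β array of each line, with 1 point per array and a line joining the arrays of a cell line. The 3 lines of Stat2 run steeply upward from 5.96 to 6.32 at the start to 8.51 to 9.71 at the end, whereas those of the 4 receptor genes move little, the steepest being Ifngr2 in L929 at -0.62.

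Stat2 (probe set 10367224) encodes the Stat protein that is particular to type I and type III interferon signalling. The NIH3T3 arrays read log2 levels of 6.32 unstimulated and 9.71 stimulated, the L929 arrays 6.15 and 9.60, and the RAW264.7 arrays 5.96 and 8.51. The stimulated arrays all lay above the unstimulated ones, and the stimulated RAW264.7 array was the lowest of the stimulated ones. The share of all genes whose conditions separate in this way was not counted. The changes correspond to 10.5-fold, 10.9-fold and 5.84-fold, and in each line Stat2 alone of the 9 genes passed the 3-fold rule of the series, which 0.476% of genes passed upward for NIH3T3, 0.893% for L929 and 0.617% for RAW264.7. None of the 9 genes was lower by 3-fold, as 0.0401%, 0.01% and 0.0% of genes were in the same order of lines.

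Averaged over the lines, Stat2 rose by 3.13 ± 0.21 on the log2 scale (SE, n = 3 lines; 95% interval 2.67 to 3.59), which is 8.75-fold (adjusted p = 7.67e-05 in limma). Between lines the change had an SD of 0.50, and the SE from limma draws each gene's spread toward that of all genes. The call held without each line in turn, in fits that rest on fewer arrays. It was lost when the cell line was left out of the model (adjusted p = 0.199), where 2 genes in all were called. The response in RAW264.7 was smaller than the fibroblast mean by 0.87 ± 0.49 (SE), which did not pass (adjusted p = 1.0 by the limma interaction term, 95% interval of the log2 difference -1.84 to 0.095), beside 0.236% of genes called, 0.0802% higher and 0.155% lower in RAW264.7.

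The unstimulated Stat2 levels differed between lines by at most 0.36, and the stimulated ones by up to 1.21. Averaged over both conditions Stat2 was lower in RAW264.7 than in the fibroblast lines by a log2 difference of -0.71 ± 0.22 (SE; limma adjusted p = 0.036), beside 12.3% of genes called lower. Most of that difference came from the stimulated arrays, where RAW264.7 stood 1.21 below NIH3T3 and 1.09 below L929. The call was lost with each array centred on its median (-0.52, adjusted p = 0.0791), after quantile normalization (-0.77, adjusted p = 0.0558) and without NIH3T3 (-0.64, adjusted p = 0.0935).

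The promoter windows of the genes with the 3 largest mean changes are shown, as RefSeq gives them for GRCm38.p6, from 250 bases before to 50 bases after a transcript start. All 9 genes had 1 such window, and the windows were searched on both strands for the core of the ISRE, taken as GAAA and GAAA with any 2 bases between them, and for the GAS core, TTCNNNGAA. Capitals mark the bases of a match, and no window of the 9 held both motifs.
Stat2, chr10:128270248-128270547, plus strand: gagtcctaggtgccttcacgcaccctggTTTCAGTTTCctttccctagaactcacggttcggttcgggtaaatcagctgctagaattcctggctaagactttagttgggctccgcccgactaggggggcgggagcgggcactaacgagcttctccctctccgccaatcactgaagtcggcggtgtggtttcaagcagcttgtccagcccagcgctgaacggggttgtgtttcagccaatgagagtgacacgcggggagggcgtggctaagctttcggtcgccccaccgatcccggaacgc
Jak2, chr19:29251553-29251852, plus strand: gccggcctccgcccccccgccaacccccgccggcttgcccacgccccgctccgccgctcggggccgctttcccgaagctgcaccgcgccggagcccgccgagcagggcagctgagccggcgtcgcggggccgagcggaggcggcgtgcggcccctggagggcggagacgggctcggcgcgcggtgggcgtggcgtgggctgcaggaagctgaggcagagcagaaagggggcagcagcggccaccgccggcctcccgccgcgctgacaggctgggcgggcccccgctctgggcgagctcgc
Stat3, chr11:100939491-100939790, minus strand: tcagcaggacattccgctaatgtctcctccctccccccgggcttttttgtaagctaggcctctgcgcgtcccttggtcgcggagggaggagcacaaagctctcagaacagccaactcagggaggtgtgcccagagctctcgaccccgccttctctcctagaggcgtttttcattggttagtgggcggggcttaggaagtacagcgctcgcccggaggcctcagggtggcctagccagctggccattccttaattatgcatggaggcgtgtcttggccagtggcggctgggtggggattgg
The Stat2 window held 1 ISRE core, read on the strand opposite to the gene, from 222 to 213 bases before the start, at chr10:128270276-128270285. The windows of Jak2 and Stat3 held neither motif, which says only that these letters are not in these 300 bases.

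An ISRE core was present in 3.44% of all 32851 promoter windows in the RefSeq table and in 1 of the 9 genes. Among the genes called higher with IFN-β that had a window, 45 of 116 held it (38.8%), against 607 of 15614 tested genes with a window (3.89%); these shares are a description, and a match is not a binding site. A GAS core was present in 8.3% of all windows and in those of Ifnar1 and Ifnar2. The Ifnar2 window is shown because Ifnar2 had the widest range of unstimulated levels over the lines among the 9 genes, 1.75, and its capitals mark the GAS core.
Ifnar2, chr16:91372533-91372832, plus strand: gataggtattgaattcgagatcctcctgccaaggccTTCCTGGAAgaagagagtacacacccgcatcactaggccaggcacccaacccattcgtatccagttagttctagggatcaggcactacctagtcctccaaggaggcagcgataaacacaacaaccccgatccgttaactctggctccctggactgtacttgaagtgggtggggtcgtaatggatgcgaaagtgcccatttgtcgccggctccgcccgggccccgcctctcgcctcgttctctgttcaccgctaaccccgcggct
The match lay 214 to 206 bases before the start. In Ifnar1 the match ggcgggggcgTTCACGGAAggggcggggc ran from 5 bases before to 3 bases after the start, with its neighbouring bases in lower case.

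Stat3 (10391301) was higher with IFN-β in 3 of 3 lines by a moderate amount. By any size, 15.5% of all genes were higher in all 3 lines. NIH3T3 went from a log2 level of 8.38 to 8.94, L929 from 7.13 to 7.98 and RAW264.7 from 7.57 to 8.45. Each stimulated array lay above its own unstimulated array, but conditions overlapped across lines, since unstimulated NIH3T3 was above stimulated L929. The folds were 1.48, 1.80 and 1.84, and the mean log2 change was 0.76 ± 0.16 (SE, n = 3 lines; 95% interval 0.40 to 1.13). Unadjusted p was 0.000934 and the limma adjusted p 0.101, so that Stat3 missed the threshold over all genes. With each array centred on its median the NIH3T3 change was 0.29, the mean 0.68 and the adjusted p 0.223. The SD between lines, 0.17, was the second smallest of the 9 genes after that of Jak1. A change at least as large as the smallest of Stat3 in every line, a cutoff set by Stat3 itself, was found for 177 genes (0.888%). The share of genes with a larger absolute change was 15.8% for NIH3T3, 3.23% for L929 and 1.51% for RAW264.7.

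Stat3 also differed between the fibroblast lines. Over both conditions it was lower in L929 than in NIH3T3 by a log2 difference of -1.10 ± 0.20 (SE; limma adjusted p = 0.00396), beside 9.0% of genes called lower and 16.1% called in either direction. The order of the levels was NIH3T3, RAW264.7 and L929 in both conditions. RAW264.7 lay between the fibroblast lines, with a difference of -0.10 from their mean (95% interval -0.49 to 0.29, adjusted p = 0.77). Without L929 that difference was -0.65 (adjusted p = 0.0375) and without NIH3T3 it was 0.45 (adjusted p = 0.112), so the mean over the fibroblast lines hides opposite differences.

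Jak2 (10462363), a kinase of the interferon-gamma receptor and of many cytokine receptors, had the widest range of responses among the 9 genes. NIH3T3 read log2 levels of 7.70 unstimulated and 7.64 stimulated, L929 7.31 and 8.17, and RAW264.7 8.22 and 9.50. It was flat in NIH3T3 and higher with IFN-β in the other lines, by 1.81-fold in L929 and 2.43-fold in RAW264.7. In RAW264.7 it was the single gene beside Stat2 to pass 2-fold, as 1.14% of genes did upward (1.73% in NIH3T3 and 1.57% in L929), and 0.843% of genes had a larger absolute change there. In L929 3.07% of genes had a larger one. No gene of the 9 was lower by 2-fold, as 0.286%, 0.376% and 0.0702% of genes were in NIH3T3, L929 and RAW264.7.

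The mean log2 change of Jak2 over the lines was 0.70 ± 0.24 (SE, n = 3 lines), with an SD between lines of 0.68, and it did not pass (unadjusted p = 0.0153, limma adjusted p = 0.628, 95% interval 0.17 to 1.23). The mean log2 change was 1.07 without NIH3T3 (adjusted p = 0.0591), 0.61 without L929 (0.847) and 0.40 without RAW264.7 (1.0). The response of RAW264.7 exceeded the fibroblast mean by 0.88 ± 0.49 (SE), which did not pass (adjusted p = 1.0, 95% interval -0.09 to 1.85), and the difference of L929 from NIH3T3, 0.92, could not be tested. Jak2 level was higher in RAW264.7 than in the fibroblast lines over both conditions, by 1.16 ± 0.25 (SE; limma adjusted p = 0.00664). Of the unstimulated arrays RAW264.7 was 0.52 above NIH3T3 and 0.91 above L929, and of the stimulated ones 1.86 and 1.33 above them.

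**Figure D2:**
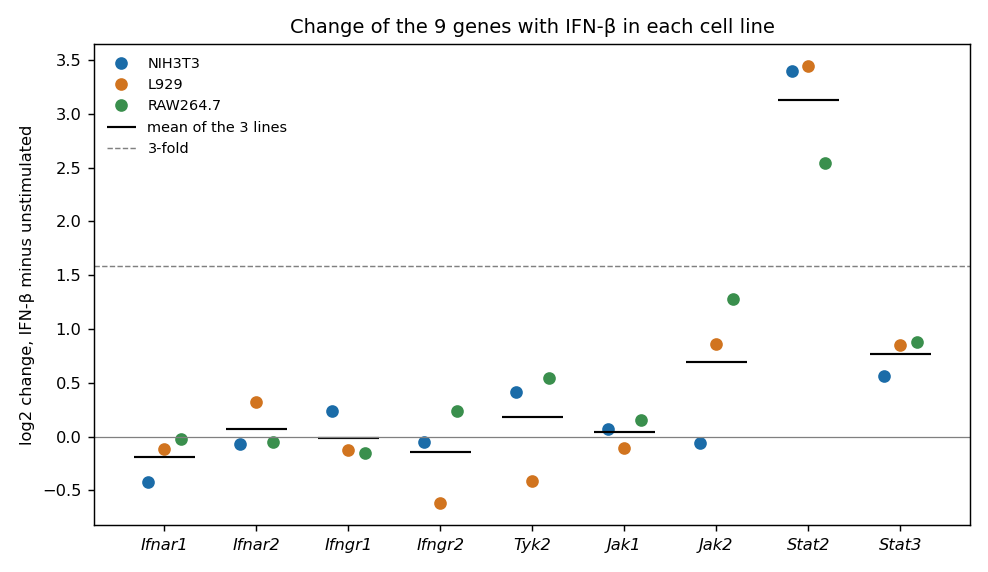
The vertical axis gives the log2 change from the unstimulated to the IFN-β array of each line (1 point per line), black bars the mean of the 3 lines and the dashed line a 3-fold increase. Stat2 stands above the dashed line in every line, from 2.55 to 3.45, Stat3 is above 0 in every line, and Jak2 spreads from -0.06 to 1.28.

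The other kinases changed less. Tyk2 (10591446), the kinase carried by Ifnar1, went from a log2 level of 5.55 to 5.96 for NIH3T3, 5.95 to 5.53 for L929 and 6.10 to 6.65 for RAW264.7. The changes thus differed in sign, and averaged 0.18 ± 0.21 on the log2 scale (SE, n = 3 lines; limma adjusted p = 0.964, 95% interval -0.28 to 0.64). In RAW264.7 5.05% of genes changed more in absolute size, and in L929 22.8%. Jak1 (10514668), the kinase shared by both interferon receptors, was the steadiest of the 9 genes, with log2 changes of 0.07, -0.11 and 0.15 in NIH3T3, L929 and RAW264.7. Its mean log2 change was 0.04 (95% interval -0.32 to 0.40, adjusted p = 0.986), an interval that leaves out increases above 1.32-fold and decreases below 0.80 of the unstimulated level.

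RAW264.7 stood at opposite ends of the levels of these kinases, lowest for Jak1 and highest for Tyk2 in both conditions. NIH3T3 read Jak1 log2 levels of 10.29 unstimulated and 10.37 stimulated, L929 9.99 and 9.89, and RAW264.7 9.57 and 9.72, with both RAW264.7 arrays below all 4 fibroblast arrays. The RAW264.7 difference of -0.49 ± 0.17 (SE) missed the threshold (limma adjusted p = 0.0656), and so did that of Tyk2, 0.63 ± 0.22 (adjusted p = 0.0653), in the other direction. Both passed after quantile normalization, at -0.64 (adjusted p = 0.0147) and 0.70 (adjusted p = 0.0286), and without L929, at -0.68 (adjusted p = 0.0265) and 0.62 (adjusted p = 0.0419). With each array centred on its median Tyk2 passed (0.82, adjusted p = 0.012) and Jak1 did not (-0.29, adjusted p = 0.252). Neither passed without NIH3T3, at -0.29 for Jak1 (adjusted p = 0.343) and 0.63 for Tyk2 (adjusted p = 0.107). With all probe sets tested together neither passed (adjusted p = 0.141 for Jak1 and 0.191 for Tyk2). L929 and NIH3T3 did not differ beyond the spread of the arrays in Tyk2 (-0.02, 95% interval -0.58 to 0.55) or in Jak1 (-0.39, 95% interval -0.83 to 0.05).

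The receptor genes did not pass the test for IFN-β in either direction, and their adjusted p-values ran from 0.964 to 0.996. No gene of all those tested was called lower. Ifnar1 (10436849), the chain that carries Tyk2, went from a log2 level of 7.17 to 6.74 for NIH3T3, 6.95 to 6.84 for L929 and 7.34 to 7.31 for RAW264.7. It was lower on the stimulated array of each line, by 0.03 in RAW264.7 to 0.42 in NIH3T3, and the mean log2 change was -0.19 ± 0.17 (SE, 95% interval -0.56 to 0.18). Ifnar2 (10436830), the high-affinity chain that carries Jak1, went from 7.91 to 7.84 for NIH3T3, 8.80 to 9.12 for L929 and 9.66 to 9.60 for RAW264.7. Its mean log2 change was 0.07 ± 0.17 (SE, 95% interval -0.31 to 0.44) and turned negative, -0.01, with each array centred on its median.

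The chains of the interferon-gamma receptor showed no common change with IFN-β either. Ifngr1 (10361897), the ligand-binding chain, went from 7.13 to 7.37 for NIH3T3, 7.05 to 6.93 for L929 and 8.07 to 7.92 for RAW264.7, with a mean log2 change of -0.02 (95% interval -0.39 to 0.36). Ifngr2 (10436865), the chain that carries Jak2, went from 9.10 to 9.05 for NIH3T3, 9.69 to 9.07 for L929 and 9.93 to 10.17 for RAW264.7. The L929 change of Ifngr2, -0.62, was exceeded in absolute size by 9.28% of genes, and the RAW264.7 change of 0.24 by 30.5%. The mean log2 change of Ifngr2 was -0.14 (95% interval -0.58 to 0.29). The difference between RAW264.7 and the fibroblast lines in response was 0.57 ± 0.49 (SE) and did not pass (limma interaction term, adjusted p = 1.0). None of the 9 genes passed that interaction test, and 0 had an unadjusted p under 0.05.

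The receptor genes were set apart by the cell line. Averaged over both conditions Ifnar2 was higher in RAW264.7 than in the fibroblast lines by a log2 difference of 1.22 ± 0.18 (SE; 2.32-fold, limma adjusted p = 0.000546), which was 0.67 without NIH3T3 (adjusted p = 0.0334) and 1.76 without L929. The same comparison gave 0.88 ± 0.18 for Ifngr1 (1.83-fold, adjusted p = 0.00438), 0.82 ± 0.21 for Ifngr2 (1.77-fold, adjusted p = 0.0139) and 0.40 ± 0.18 for Ifnar1 (adjusted p = 0.145). In all, 4 of the 9 genes were called higher in RAW264.7, namely Ifnar2, Ifngr1, Ifngr2 and Jak2, beside 13.0% of all genes, and Stat2 was called lower, beside 12.3% (25.4% in either direction). Single arrays give a partly different set. Both RAW264.7 arrays lay above all 4 fibroblast arrays for 6 of the 9 genes (16.4% of all genes), the 4 receptor genes with Tyk2 and Jak2, and below them for Jak1 (18.8% of all genes), whereas those of Stat2 and Stat3 overlapped.

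Of these calls, that of Ifngr2 was lost without NIH3T3 (0.67, adjusted p = 0.0746), and Ifnar1 passed with each array centred on its median (0.59, adjusted p = 0.0379). RAW264.7 is 1 line, so line and cell type cannot be told apart, and both arrays of a line stand for that line alone.

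Between the fibroblast lines Ifnar2 was the gene of the 4 receptor genes that differed. It was higher in L929 than in NIH3T3 by 1.08 ± 0.21 (SE; 2.12-fold, limma adjusted p = 0.00505), beside 7.09% of genes called higher in L929. Its levels ran RAW264.7, L929 and NIH3T3 in both conditions, and the unstimulated RAW264.7 array stood 1.75 above NIH3T3 and 0.86 above L929. For the other receptor genes the neighbours L929 and NIH3T3 did not differ beyond the spread of the arrays, with intervals of -0.52 to 0.39 for Ifnar1, -0.72 to 0.20 for Ifngr1 and -0.23 to 0.83 for Ifngr2.

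**Figure D3:**
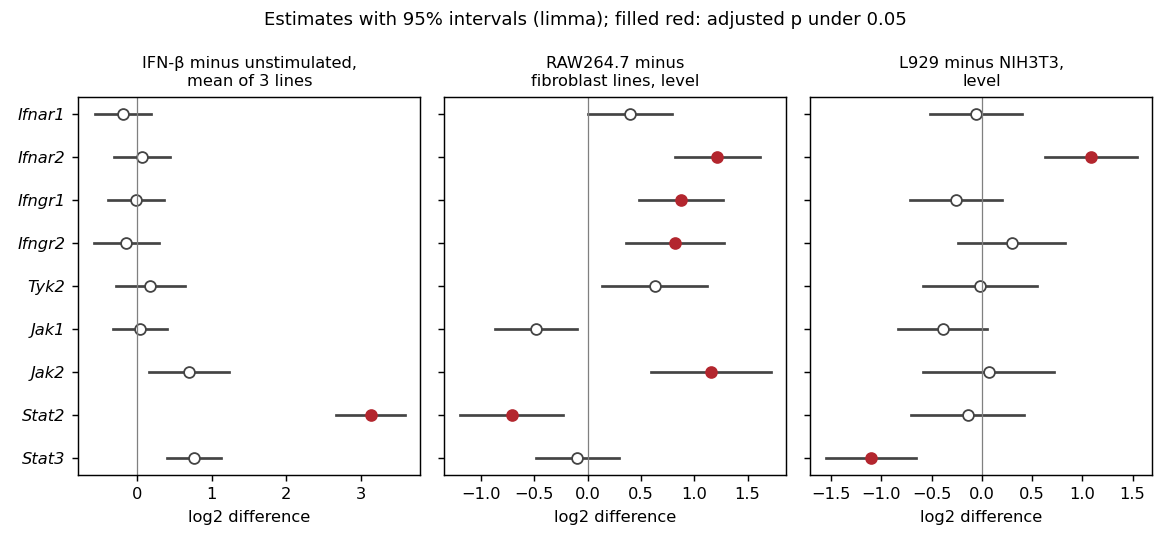
Points are limma estimates of the log2 difference and bars their 95% intervals for the IFN-β effect over 3 lines, for the level in RAW264.7 against the fibroblast lines and for L929 against NIH3T3. Filled points have an adjusted p under 0.05 over 19938 genes; Stat2 alone is filled in the first panel, 5 genes in the second, and Ifnar2 and Stat3, on opposite sides of 0, in the third.

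Other genes of the pathway were then counted from lists. Of 5 measured genes in the list of other Stat genes and Irf9, 1 rose, Irf9, and the median of the list's mean changes was 0.19; Stat4, Stat5a, Stat5b and Stat6 did not pass, with mean log2 changes from -0.18 to 0.26. Of 15 related cytokine receptors 0 passed in limma (2 at an unadjusted p under 0.05, as were 1092 of all 19938 genes; adjusted p 0.292 for the lowest of those named), with Il13ra1, Osmr and Csf2rb at mean log2 changes of 0.74, 0.53 and 0.27. Il13ra1, a chain of the receptor for interleukin-13, changed by 1.01 in NIH3T3 and 1.02 in RAW264.7 but by 0.20 in L929, where its level was near 3.36. Of 21 negative regulators 1 rose, Usp18, and of 14 positive regulators and adaptors 2 rose, Ifi35 and Nmi. No list member passed as lower, but neither did any of the 19938 genes tested, and 0.732% of all genes passed as higher.

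Irf9, the DNA-binding partner of Stat2 in ISGF3, did not follow Stat2 across the lines. NIH3T3 went from a log2 level of 4.74 to 7.49, L929 from 5.17 to 8.40 and RAW264.7 from 7.58 to 8.26. Unstimulated RAW264.7 was thus 2.84 above NIH3T3 and 2.41 above L929, where Stat2 was 0.36 and 0.19 below them. The mean log2 change of Irf9 was 2.22 ± 0.39 (SE, n = 3 lines, higher in 3 of 3; limma adjusted p = 0.0293), and the response in RAW264.7 was smaller by 2.32 ± 0.49 (SE; adjusted p = 0.00189). The common call of Irf9 was lost without NIH3T3 (adjusted p = 0.268) and without L929 (adjusted p = 0.134), and the difference in response with each array centred on its median (adjusted p = 0.44) and after quantile normalization (adjusted p = 0.344).

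Usp18, which binds Ifnar2 and dampens receptor signalling, went from 3.83 to 10.10 for NIH3T3, 4.03 to 11.45 for L929 and 8.37 to 11.36 for RAW264.7, so that it too began higher in RAW264.7, by 4.34 or more. Its mean log2 change was 5.56 ± 0.62 (SE, adjusted p = 0.00164 in limma), and the response in RAW264.7 was smaller by 3.86 ± 0.49 (SE; adjusted p = 5.5e-11), a call that was lost with each array centred on its median (adjusted p = 0.119) and after quantile normalization (adjusted p = 0.116). Ifi35 and its partner Nmi, which bind each other and associate with Stat signalling, rose by mean log2 changes of 2.70 (adjusted p = 0.00134) and 1.64 (adjusted p = 0.0257), and the call of Nmi was lost after quantile normalization (adjusted p = 0.12). Unstimulated RAW264.7 stood above NIH3T3 by 1.56 for Ifi35 and by 2.11 for Nmi. Of Stat2 and these 4 genes, Stat2 alone had its lowest unstimulated level in RAW264.7.

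**Figure D4:**
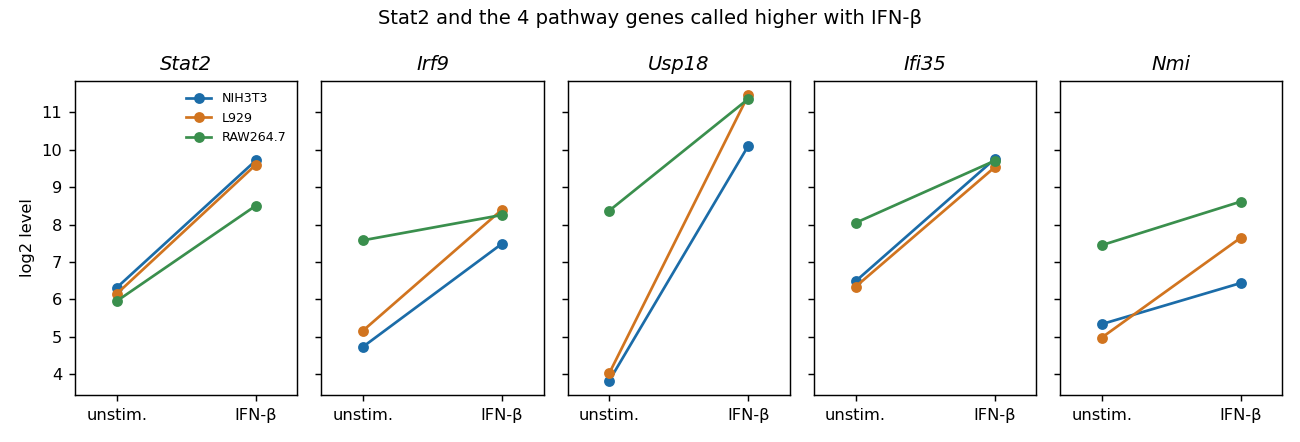
Each panel plots the log2 level of 1 gene on the unstimulated and the IFN-β array of each line, 1 point per array; levels are to be compared within a panel, since probe sets differ. Irf9, Usp18, Ifi35 and Nmi start higher in RAW264.7 than in the fibroblast lines, by 1.56 (Ifi35 against NIH3T3) to 4.54 (Usp18 against NIH3T3), whereas Stat2 starts within 0.36 in all lines.

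Among genes known as Stat3 targets, 0 of 22 measured passed in limma, beside 0.732% of all genes. An unadjusted p under 0.05 was found for 4 of the 22, and for 1092 of the 19938 genes tested. The median of their mean log2 changes was 0.14 against 0.03 for all genes. Il6, Osmr and Junb had the largest mean log2 changes, 1.88, 0.53 and 0.51, and none passed (adjusted p = 0.281, 0.609 and 0.599). Il6, the cytokine whose receptor signals through Stat3, went from a log2 level of 2.63 to 3.76 for NIH3T3, 2.11 to 6.07 for L929 and 1.74 to 2.29 for RAW264.7. All its unstimulated levels and the stimulated RAW264.7 one lay below the lower quartile of their arrays, 3.339 to 3.399, so that the sizes of its changes are uncertain. Of 9 interferon ligand genes 0 passed and 0 had an unadjusted p under 0.05; the 3 with the largest mean changes were Ifnz (-0.32), Ifna2 (-0.23) and Ifne (0.22). Of 9 housekeeping genes 0 passed and 0 had an unadjusted p under 0.05, with B2m at 0.49, Actb at -0.36 and Rplp0 at -0.30. B2m was not steady, and its unadjusted limma p was 0.0509. It rose 2.16-fold on the L929 arrays (log2 1.11) and 1.29-fold on the RAW264.7 arrays, and was flat for NIH3T3 (-0.03). B2m is thus not read as a gene that IFN-β leaves unchanged. The median log2 change of the 9 genes was -0.46 for NIH3T3, -0.03 for L929 and -0.08 for RAW264.7.

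The genes whose pattern over the 6 arrays came closest to each of the 9 were found by the root mean square (RMS) difference of log2 levels after each gene was centred on its own mean. For Stat2 they were Parp10 (RMS difference 0.46, Pearson r = 0.98 over 6 arrays), Slfn9 (0.52) and Parp11 (0.53), beside an RMS of 1.61 for Stat2 about its own mean. Parp10 changed by 2.56, 2.98 and 2.01 in NIH3T3, L929 and RAW264.7, and all 3 of these genes were higher with IFN-β in every line. For Jak2 the closest was Tmem67 (RMS difference 0.12, r = 0.99), with log2 changes of 0.09, 0.95 and 0.998 in the same order, followed at 0.21 and 0.22 by Gm14636 and Il21r. For Stat3 they were Fas (0.16, r = 0.97), Asah2 (0.20) and Slc39a8 (0.23), and Fas changed by 0.56, 0.39 and 0.76.

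For the receptor genes and the other kinases, the distances were 0.12 or less. Ifnar2 was closest to Eef1e1 (RMS difference 0.11), Hax1 (0.12) and Cenpp (0.12), and Ifnar1, whose own RMS was 0.23, to Ndufa10, Sfpq and Hnrnpu (0.04 to 0.05). Ifngr1 was closest to Crlf3, Akna and Hnrnpr (0.06 to 0.08) and Ifngr2 to Prss16, Ube2q1 and Slc23a2 (0.06 to 0.07). Tyk2 was closest to Mcm10, P4ha1 and Ppp1r15b (0.09), and Jak1 to Tmem94, Wdr46 and Fam169b (0.05 to 0.06). These are descriptions over 6 arrays that share 3 lines and 2 conditions.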

How the data were processed

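The authors deposited 1 log2 value per probe set and array, computed by RMA, per the submitters' processing notes; the sources used here do not name its version, settings or annotation build, and base 2 follows from the range of the values. Each array was assigned by its sample title. The array annotation gave a single gene for 21789 probe sets, several for 1621 and none for 12147; symbols were updated by Entrez ID (91 unmatched, 0 changed), and for 999 genes with more than 1 probe set that of highest mean signal was kept.

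A linear model with the line as block and a treatment term was fitted with limma 3.58.1 (R 4.3.3; 2 residual degrees of freedom, prior 7.872) to 19938 genes, two-sided, with Benjamini-Hochberg adjustment. The same fit gave the differences in level between lines; an interaction term (1 residual degree of freedom, infinite prior, hence the same SE of 0.49 for every gene) gave the difference in response. Arrays of a line are paired by that line. The labels do not say whether arrays came from separate cultures, so p-values measure only the spread between these arrays, whose number limits the precision. Python 3.11.15 did the rest. Of these tests the treatment term alone was checked, on data simulated from the model's own fitted variances. That check does not cover the level and interaction tests or departures from the model.

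The 9 genes, the 7 pathway and 4 marker lists and the tests were chosen with earlier results of these data known. Named were the 9 genes; in each pathway list the members called, otherwise the 3 largest mean changes; the 3 markers of highest mean over all arrays; and the 3 closest patterns per gene. Dcn, Thy1, Mpeg1 and, in the closing section, Il10rb and Socs1 were chosen after their values were seen. Alternatives were the mean of a gene's probe sets, every probe set tested, removal of genes below the median, median centring, quantile normalization, limma's trend and robust options, a fit without the block, leaving out 1 line at a time, a threshold of 0.1 and 2-fold. Promoter windows are from RefSeq (GRCm38.p6).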

Additional observations from a re-analysis of the deposited data

Results flagged for a closer look

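The response to IFN-β differed between RAW264.7 and the fibroblast lines for 3 of the pathway genes named, by the limma interaction term. It differed for none of the 9 receptor, kinase and Stat genes, and for 0.236% of all genes. The 3 are a selected set, since Irf9 and Usp18 were named for passing the common IFN-β test and Il6 for its mean change. The log2 difference in response was -2.32 for Irf9 (adjusted p = 0.00189), -3.86 for Usp18 (adjusted p = 5.5e-11) and -1.998 for Il6 (adjusted p = 0.0276). The Il6 value is not to be read as exact, since its unstimulated levels, 1.74 to 2.63, and the 2.29 of stimulated RAW264.7 lay below the lower quartile of their arrays (3.339 to 3.399). A filter on genes below the median removed Il6, and the robust option with a trend gave an adjusted p of 1.0. Irf9 changed by 0.68 in RAW264.7 and by 2.75 and 3.23 in NIH3T3 and L929, and Usp18 by 2.98 against 6.27 and 7.42. Il6 had log2 changes of 0.55 for RAW264.7, 1.13 for NIH3T3 and 3.96 for L929, and without L929 its difference was -0.58, a value with no test. With each array centred on its median the adjusted p-values became 0.44, 0.119 and 1.0, and after quantile normalization 0.344, 0.116 and 1.0. The test rests on 1 pair of arrays in RAW264.7 and on a single variance for all genes.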

How the results depend on the processing

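With all 35557 probe sets tested together 14 were called for the effect of IFN-β, Stat2 among them (adjusted p = 0.0466), and 4 for the difference in response. No replicate number pairs the arrays beyond the cell line: without this replicate block 2 genes were called and 0 of the pathway list members, where 4 had passed. That count was also 0 with all probe sets, 2 after quantile normalization, where Irf9 (adjusted p = 0.102) and Nmi (adjusted p = 0.12) were lost, and 2 with robust empirical Bayes and a trend, where Irf9 (adjusted p = 0.788) and Usp18 (adjusted p = 0.824) were lost. All probe sets also ended the RAW264.7 level calls of Jak2 (adjusted p = 0.0623), Ifngr2 (0.0762) and Stat2 (0.137). Leaving out each line gave 116 to 223 calls for the IFN-β effect, the 223 without RAW264.7, against 146 with all lines. Those fits rest on fewer arrays and fewer residual degrees of freedom than the main fit, so the counts are not directly comparable. The 47 calls for the difference in response became 0 with each array centred on its median and 0 after quantile normalization. At 2-fold 345, 314 and 228 genes were higher in NIH3T3, L929 and RAW264.7, against 95, 178 and 123 at 3-fold. Of the calls between lines, 51.4% were higher in RAW264.7 and 66.5% after median centring; for L929 against NIH3T3 the share was 44.0%, and 58.5% after centring.

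Small uncalled values changed sign. With median centring the IFN-β change became -0.012 for Ifnar2 and -0.039 for Jak1, the RAW264.7 difference of Stat3 0.095, and the L929 difference from NIH3T3 0.098 for Ifnar1, 0.14 for Tyk2 and 0.020 for Stat2. After quantile normalization the IFN-β change of Ifngr1 became 0.0062 and the L929 difference 0.046 for Ifnar1 and 0.11 for Tyk2. Without 1 line the IFN-β change ran from -0.061 to 0.135 for Ifnar2, -0.14 to 0.054 for Ifngr1, -0.335 to 0.094 for Ifngr2, -0.00098 to 0.478 for Tyk2 and -0.016 to 0.113 for Jak1, and the RAW264.7 difference of Stat3 from -0.65 to 0.45. The cause of these shifts was not tested. The interaction could not be tested without a fibroblast line.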

Other observations

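In the RefSeq table for GRCm38.p6, Ifnar2, Il10rb, Ifnar1 and Ifngr2 follow each other directly among the protein-coding genes of chromosome 16. Il10rb encodes the receptor chain shared by interleukin-10 and type III interferon. NIH3T3 read log2 levels of 6.57 unstimulated and 6.56 stimulated, L929 7.92 and 7.31, and RAW264.7 8.70 and 8.68. That is the order of Ifnar2, with RAW264.7 highest and NIH3T3 lowest in both conditions. Ifngr2 had this order too, though its stimulated L929 array was only 0.01 above NIH3T3, and unstimulated Ifnar1 did not. Il10rb was chosen after its values were seen. Over both conditions Il10rb was higher in RAW264.7 than in the fibroblast lines by 1.60 ± 0.19 (SE; limma adjusted p = 0.000137), beside 13.0% of all genes called higher. It was higher in L929 than in NIH3T3 by 1.06 ± 0.22 (SE; adjusted p = 0.00897), beside 7.09% of all genes. With IFN-β its mean log2 change was -0.21 (adjusted p = 0.964). The L929 change of Il10rb, -0.61, was close in size to the -0.62 of Ifngr2, but not to the 0.32 of Ifnar2 or the -0.12 of Ifnar1.

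Socs1, an inhibitor of Jak kinases, changed by 1.12 for NIH3T3, 0.92 for L929 and 0.30 for RAW264.7 on the log2 scale, a mean of 0.78 ± 0.19 (SE, n = 3 lines) that did not pass (limma adjusted p = 0.203).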
